A study of Macaca mulatta with 51 samples.

Results

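The genes described here encode lysosomal enzymes and lysosomal membrane proteins, with TFEB, a transcription factor that activates lysosomal genes. A list of 36 symbols was looked up by gene symbol in the count table, and 34 were found among 16033 genes. CTSZ and MAN2B1 were not analysed here. All 34 passed the filter on low counts, 0.5 CPM (counts scaled to a common library size) in 10% of libraries, in both tissues.

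Lysosomes are acidic organelles in which hydrolases take apart proteins, lipids and glycans delivered by endocytosis, phagocytosis and autophagy. A proton pump keeps the lumen acidic, and heavily glycosylated membrane proteins line its wall. In adipose tissue (AT), both adipocytes and macrophages use lysosomes, and macrophages that take up lipid released by adipocytes are known for high levels of acid lipase and cathepsins.

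The animals were diet-induced obese (DIO) rhesus macaques without diabetes, aged 11 to 22 years and all kept on a high fat diet; 5 were male, and the 5 females had been ovariectomized. Each served as its own control: biopsies were taken pre-treatment, after 12 weeks of daily subcutaneous native human FGF21 (post-treatment) and 16 weeks after dosing ended (washout). Doses rose from 10 to 1000 ug/kg/day, except for 1 animal held at 300, and no untreated animals were sampled in parallel, so that treatment and time cannot be told apart. The paper reports that the animals lost body weight during dosing and regained it by washout. It states that effects of FGF21 cannot be separated from responses to weight loss, and body weight was not analysed here. Subcutaneous abdominal AT gave 10 pre-treatment, 9 post-treatment and 8 washout libraries, and gastrocnemius skeletal muscle (SM) gave 6, 8 and 7.

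Total counts per library ranged from 14455195 to 23940980. The 6 measured markers of mature adipocytes summed to between 10000 and 34500 CPM in every AT library, and the 9 measured markers of muscle fibres summed to between 53900 and 272000 CPM in every SM library. The lowest muscle fibre sum belonged to the post-treatment SM library of animal 21189, which also had the highest stromal sum in SM, at 27000 CPM against a median of 3650 CPM post-treatment. Among AT washout libraries, that of animal 23004 had the highest macrophage sum, at 4190 CPM against a median of 1210 CPM. The same animal had the highest macrophage sum in AT pre-treatment, at 4030 CPM. The libraries also fall into 3 number series of their identifiers, whose meaning is not given in the sources used here.

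Before treatment, lysosomal genes were expressed at higher levels in AT than in SM. Of the 34 genes, 31 were higher in AT and 1, TFEB, was higher in SM, in the 6 animals with both tissues. Over all genes 73% differed, 38.2% higher in AT and 34.7% lower. A gene counted as differing, or as differentially expressed (DE) between time points, when edgeR's quasi-likelihood test gave it an adjusted p under 0.05 and its estimate, up or down, exceeded 0.26 on the log2 scale.

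LIPA, the acid lipase that splits cholesteryl esters and triglycerides in the lysosome, differed most of the 34. With both tissues scaled together, LIPA ranged from 288 to 1730 CPM in AT with a median of 908, and from 15.5 to 35.1 CPM in SM with a median of 26.8. No library of one tissue reached the range of the other, and the fitted ratio was 30.4-fold (log2 difference 4.92 ± 0.38 SE, edgeR quasi-likelihood adjusted p = 4.78e-06, n = 6). The next differences were those of CTSK (3.14 ± 0.34), CTSS (2.96 ± 0.31) and GALNS (2.94 ± 0.21), all on the log2 scale. CTSK and CTSS are cysteine cathepsins of bone-resorbing and antigen-presenting cells, and GALNS removes sulfate from keratan sulfate.

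TFEB stood on the other side. It ranged from 22.2 to 32.4 CPM in AT and from 57 to 112 CPM in SM, without overlap, which gave a log2 difference of -1.42 ± 0.19 for AT against SM (adjusted p = 0.000115). Of the 34 genes, 2 membrane proteins lay nearest to equal levels. LAMP2, a structural membrane protein, differed by 0.10 ± 0.14, with 174 to 242 CPM in AT and 138 to 248 CPM in SM, and SCARB2, the receptor that carries glucocerebrosidase to lysosomes, differed by -0.13 ± 0.18. Neither passed the test, whereas LAMP1 did, at 1.99 ± 0.18. Scaling by library size alone moved the median of all genes by 0.85 in this comparison. All 34 genes then passed, 33 of them higher in AT, among them SCARB2, whose sign it turned, with TFEB still higher in SM. The share of all genes called in that fit is not given here. All 18 macrophage markers were higher in AT too, with a median log2 difference of 3.34, and their part in these differences was not tested. In bulk tissue, fewer cells of a type and less RNA per cell cannot be told apart.

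**Figure D1:**
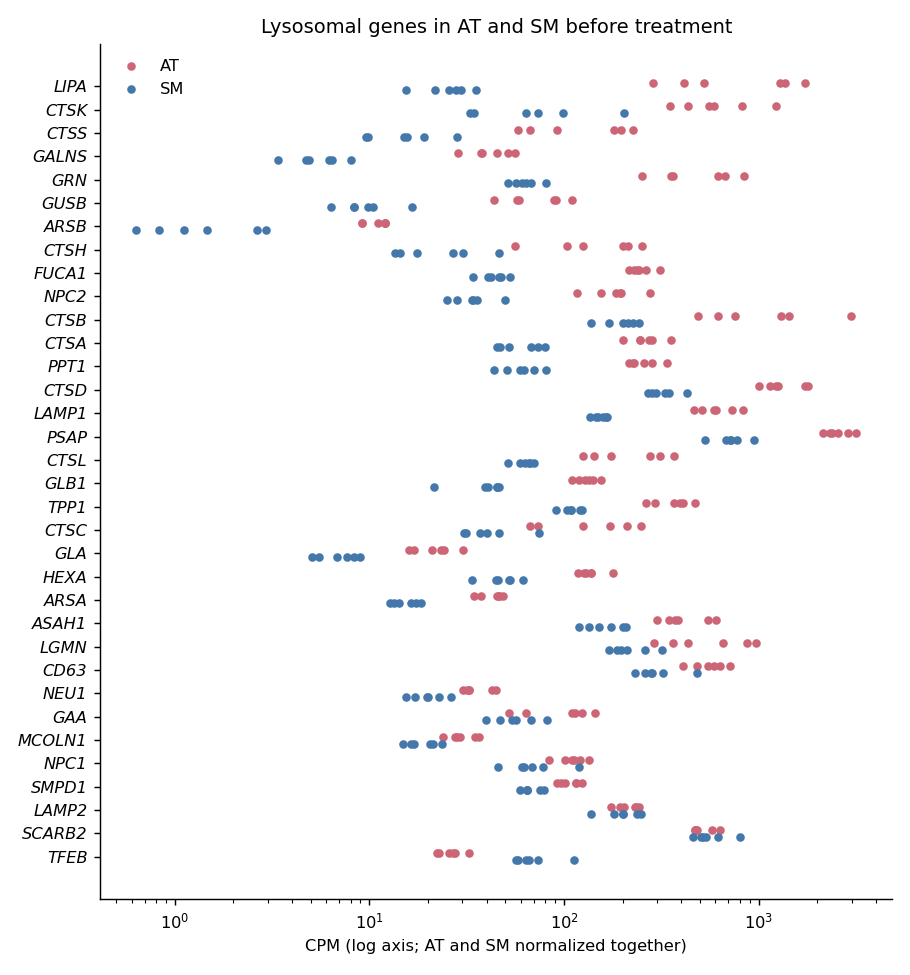
CPM (log axis) of the 34 lysosomal genes in the 6 animals with pre-treatment libraries of both tissues, 1 point per library, AT in red and SM in blue, ordered by the fitted difference. LIPA at the top spans 288 to 1730 CPM in AT against 15.5 to 35.1 CPM in SM, LAMP2 and SCARB2 overlap between tissues, and TFEB at the bottom is higher in SM.

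Post-treatment, 9 of the 34 genes were DE in AT compared to pre-treatment. CTSC, CTSS, CTSK, CTSH, NPC2, ASAH1 and LAMP2 rose and GLB1 and SMPD1 fell. The 9 are 26.5% of the genes, against 15.5% of all 13367 genes tested, of which 6.98% rose and 8.49% fell. The median log2 fold change of the 34 was 0.33, against 0.03 for all genes, and 28 of the 34 had a positive estimate. Of 18 macrophage markers 7 rose as well and 0 fell, with a median of 0.92, and their part in the result was not tested.

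Proteases were 4 of the 7 genes that rose. Of 10 cathepsins and related peptidases measured, 4 rose, 0 fell and all 10 estimates were positive, with a median of 0.89. CTSC, the dipeptidyl peptidase that activates serine proteases of immune cells, ranged from 92.3 to 434 CPM pre-treatment with a median of 201, and from 205 to 1370 CPM post-treatment with a median of 427. It was higher in 7 of 9 animals and 4 post-treatment libraries lay above every pre-treatment library, although the groups overlapped (1.32 ± 0.35, 2.49-fold, adjusted p = 0.0208).

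CTSS, the cathepsin that trims the invariant chain of MHC class II, had 79.7 to 304 CPM pre-treatment with a median of 192, and 185 to 901 CPM post-treatment with a median of 334. CTSK, a collagen-degrading cathepsin, had 486 to 1650 CPM pre-treatment with a median of 1020, and 1290 to 3970 CPM post-treatment with a median of 1790. Both sets of libraries overlapped, with 5 of 9 post-treatment libraries above the pre-treatment range in each gene. CTSS was higher in 7 of 9 animals (1.05 ± 0.35, adjusted p = 0.0457) and CTSK in 8 of 9 (1.01 ± 0.25, adjusted p = 0.0155). CTSH, an aminopeptidase, rose as well (0.95 ± 0.29, adjusted p = 0.0327). CTSS lost its call without animal 20261, 20275, 21189, 21866, 22130, 24849 or 26292. CTSH lost its call without the same animals except 21866, and CTSK only without 22130.

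CTSD, the main aspartic protease of lysosomes, did not pass the test. Its levels ran from 1220 to 2870 CPM pre-treatment (median 1830) and from 958 to 3200 CPM post-treatment (median 1840). Of the post-treatment libraries 3 lay above and 1 below the pre-treatment range, 4 of 9 animals were higher, and the estimate was 0.14 ± 0.21 (adjusted p = 0.674). CTSL and CTSB had larger estimates, 0.90 ± 0.31 and 0.87 ± 0.38, with adjusted p of 0.052 and 0.115.

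Among the 3 genes of cholesteryl ester breakdown and sterol exit, NPC2, a soluble sterol carrier, rose (0.66 ± 0.19, adjusted p = 0.0266). NPC1, the membrane protein that receives sterol from it, had an estimate of 0.07 ± 0.14. LIPA ranged from 391 to 2480 CPM pre-treatment with a median of 1160, and from 1040 to 9250 CPM post-treatment with a median of 1980. Animals differed widely in LIPA: 7 of 9 were higher and 2 lower, with log2 changes from -0.58 in animal 23004 to 4.01 in animal 20275. The estimate of 1.26 ± 0.48 did not pass the test (adjusted p = 0.0741).

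Of the 8 genes grouped under sphingolipid and fatty acyl breakdown, GRN among them, 1 rose and 1 fell. ASAH1, acid ceramidase, rose by 0.62 ± 0.18 (adjusted p = 0.0285), with 8 of 9 animals higher. SMPD1, acid sphingomyelinase, which makes the ceramide that ASAH1 splits, ranged from 124 to 183 CPM pre-treatment (median 155) and from 90.4 to 154 CPM post-treatment (median 126). SMPD1 fell by 0.30 ± 0.08 on the log2 scale (adjusted p = 0.0192), was lower in 8 of 9 animals, and in 4 post-treatment libraries lay below the pre-treatment range.

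Of the 7 genes of glycan breakdown 0 rose and 1, GLB1, fell. GLB1, lysosomal beta-galactosidase, ranged from 150 to 215 CPM pre-treatment (median 182) and from 105 to 157 CPM post-treatment (median 141). It was lower in 9 of 9 animals and 7 post-treatment libraries lay below the pre-treatment range. The fall of 0.42 ± 0.08 on the log2 scale had the smallest adjusted p of the 34 genes (0.00421). GUSB, beta-glucuronidase, had an estimate of 0.62 ± 0.23 (adjusted p = 0.0668).

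Of the 5 membrane proteins only LAMP2 passed the test. It rose by 0.35 ± 0.10 (adjusted p = 0.03), with every one of 9 animals higher, and ranged from 242 to 324 CPM pre-treatment and from 286 to 509 CPM post-treatment. LAMP1, a widely used marker of the lysosomal membrane, ranged from 632 to 1120 CPM pre-treatment (median 838) and from 648 to 1630 CPM post-treatment (median 900). Its groups overlapped, with 5 of 9 animals higher (0.19 ± 0.17, adjusted p = 0.449).

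TFEB ranged from 29.5 to 46.7 CPM pre-treatment with a median of 34.2, and from 21.6 to 41.6 CPM post-treatment with a median of 27.6. It was lower in 9 of 9 animals and 6 post-treatment libraries lay below the pre-treatment range. The estimate of -0.27 ± 0.09 just missed the threshold over all genes (adjusted p = 0.0533).

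The number of DE genes post-treatment depended on single animals. It was 1 without animal 22130, where no increase was left, 3 without 21189, 4 without 20275, 5 without 20261, 6 without 26292, 14 without 20456 and 16 without 23004, and it was 4 without the pre-treatment library of 20275 alone. voomWithQualityWeights called 7, without CTSS and LAMP2, and gave the 34 genes a median of 0.16. DESeq2 called 16, among them LIPA and TFEB, a fit of only the 2 time points 4, and the libraries of the last identifier series alone 3. The share of all genes given above belongs to the main fit alone. LAMP2 lost its call without animal 20275, 21189, 21866 or 22130, and NPC2 and ASAH1 without 20261, 20275, 21189 or 22130. CTSC lost its call without 21189 or 22130, and SMPD1 without 22130 or 26292. GLB1 fell in every fit that left out an animal, with log2 fold changes from -0.45 to -0.37.

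**Figure D2:**
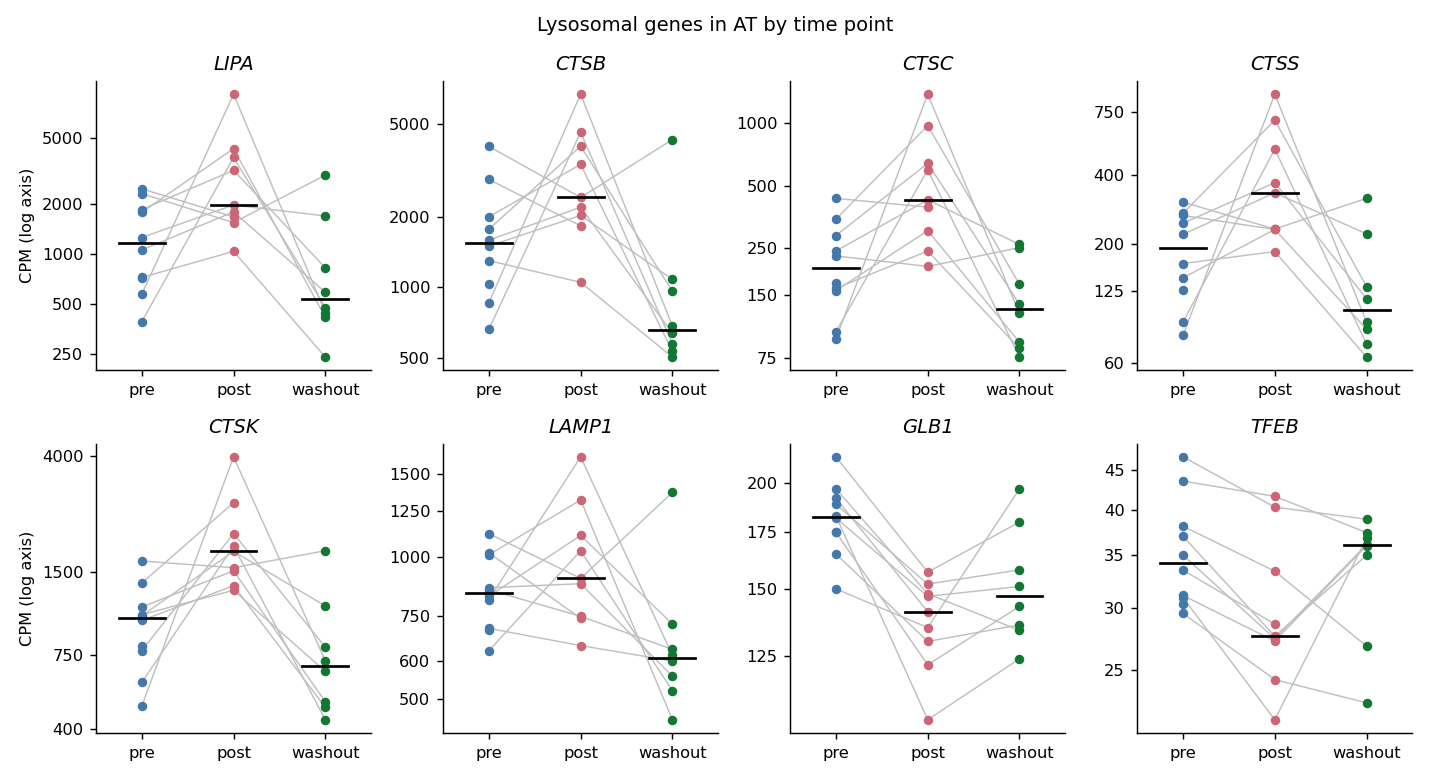
CPM (log axis) of 8 lysosomal genes in AT pre-treatment (blue), post-treatment (red) and at washout (green), 1 point per library, with grey lines joining libraries of an animal and black bars at the medians. LIPA and the cathepsins are high post-treatment and low at washout in most animals, while GLB1 and TFEB are lowest post-treatment by their medians.

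The largest number of DE lysosomal genes was found at washout. Of the 34 genes, 24 fell and 1, ARSA, rose compared to post-treatment in AT. These 25 are 73.5% of the genes, against 35.4% of all genes, of which 17.8% fell and 17.6% rose. At an unadjusted p under 0.05, 28 of the 34 were counted, against 46.8% of all genes. The median log2 fold change was -0.65, against 0 for all genes. The 3 comparisons within AT share libraries with each other, so that they are not independent. All 18 macrophage markers fell too, with a median of -1.73, and their part in the result was not tested.

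All 10 proteases fell, with a median of -1.33. CTSC had 75.4 to 261 CPM at washout with a median of 128, and 6 of 8 washout libraries lay below every post-treatment library. It fell by 1.89 ± 0.37 on the log2 scale (adjusted p = 0.000886). CTSB, a widely expressed cysteine cathepsin, ranged from 1050 to 6690 CPM post-treatment (median 2420) and from 503 to 4280 CPM at washout (median 659).

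For CTSB, 7 of 8 animals were lower and animal 23004 alone was higher, with the highest washout level (-1.78 ± 0.40, adjusted p = 0.0025). CTSS fell by 1.70 ± 0.37 (adjusted p = 0.00173), CTSK by 1.36 ± 0.27 (adjusted p = 0.000801) and LGMN, the asparaginyl endopeptidase that matures other cathepsins, by 1.35 ± 0.30 (adjusted p = 0.00186), each on the log2 scale and each in 7 of 8 animals. CTSD had 817 to 2580 CPM at washout with a median of 1180, and overlapped its post-treatment range in 7 of 8 libraries. CTSD and TPP1, a tripeptidyl peptidase, fell least of the 10 proteases, by 0.65 ± 0.22 (adjusted p = 0.0259) and 0.64 ± 0.14 (adjusted p = 0.00198) on the log2 scale. CTSD lost its call in 6 of the 10 fits that left out an animal, those without 20261, 20275, 21189, 22130, 24849 or 26292.

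LIPA had the largest decrease of the 34 genes. At washout it ranged from 239 to 3000 CPM with a median of 532, and 6 of 8 libraries lay below every post-treatment library. Animal 23004 was again higher, by 0.95, while animal 20275 was lower by 4.38 (log2 change of -4.38). The estimate was -1.96 ± 0.51, or 0.256-fold (adjusted p = 0.0061). NPC2 fell by 0.85 ± 0.20 (adjusted p = 0.00289) and NPC1 had an estimate of -0.35 ± 0.15 (adjusted p = 0.0678).

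Of the 8 genes grouped under sphingolipid and fatty acyl breakdown, 5 fell. GRN was counted in this group, though it encodes a precursor protein and not an enzyme of that breakdown. GRN, progranulin, a precursor cut to granulins in lysosomes, fell by 1.20 ± 0.30 (adjusted p = 0.00453), ASAH1 by 0.95 ± 0.19 (adjusted p = 0.000986) and HEXA, a subunit of beta-hexosaminidase, by 0.54 ± 0.10 (adjusted p = 0.000595) on the log2 scale. HEXA was lower in 8 of 8 animals, 23004 included. PSAP, the precursor of the saposins, had an estimate of -0.25 ± 0.13 and SMPD1 one of 0.02 ± 0.08.

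ARSA, arylsulfatase A, which removes sulfate from sulfatide, went the other way. It ranged from 42.8 to 67 CPM post-treatment (median 55.2) and from 49.7 to 94.1 CPM at washout (median 74.9). It was higher in 8 of 8 animals and 7 washout libraries lay above every post-treatment library (0.37 ± 0.08, adjusted p = 0.00237).

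GUSB, GALNS and FUCA1, the fucosidase, were the 3 of 7 glycan-degrading genes that fell, by 0.88 ± 0.24, 0.73 ± 0.17 and 0.67 ± 0.18 on the log2 scale. GLB1 had an estimate of 0.16 ± 0.09 (adjusted p = 0.145). Of the 5 membrane proteins 4 fell. LAMP2 had the smallest adjusted p of all 34 genes in this comparison (0.00014) and fell by 0.68 ± 0.11, in 8 of 8 animals. LAMP1 had 451 to 1370 CPM at washout with a median of 610, and 6 of 8 washout libraries lay below the post-treatment range (-0.59 ± 0.18, adjusted p = 0.0178). Its call was lost without animal 20275, 21189 or 22130. MCOLN1, a calcium channel of the lysosomal membrane, had an estimate of -0.13 ± 0.13.

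TFEB ranged from 22.7 to 38.9 CPM at washout with a median of 36. It was higher in 4 of 8 animals and lower in the other 4, and did not pass the test (0.16 ± 0.10, adjusted p = 0.192). Leaving out any 1 animal gave 22 to 27 DE genes in this comparison, and every other setting between 22 and 26. The share of all genes given above for it belongs to the main fit alone.

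**Figure D3:**
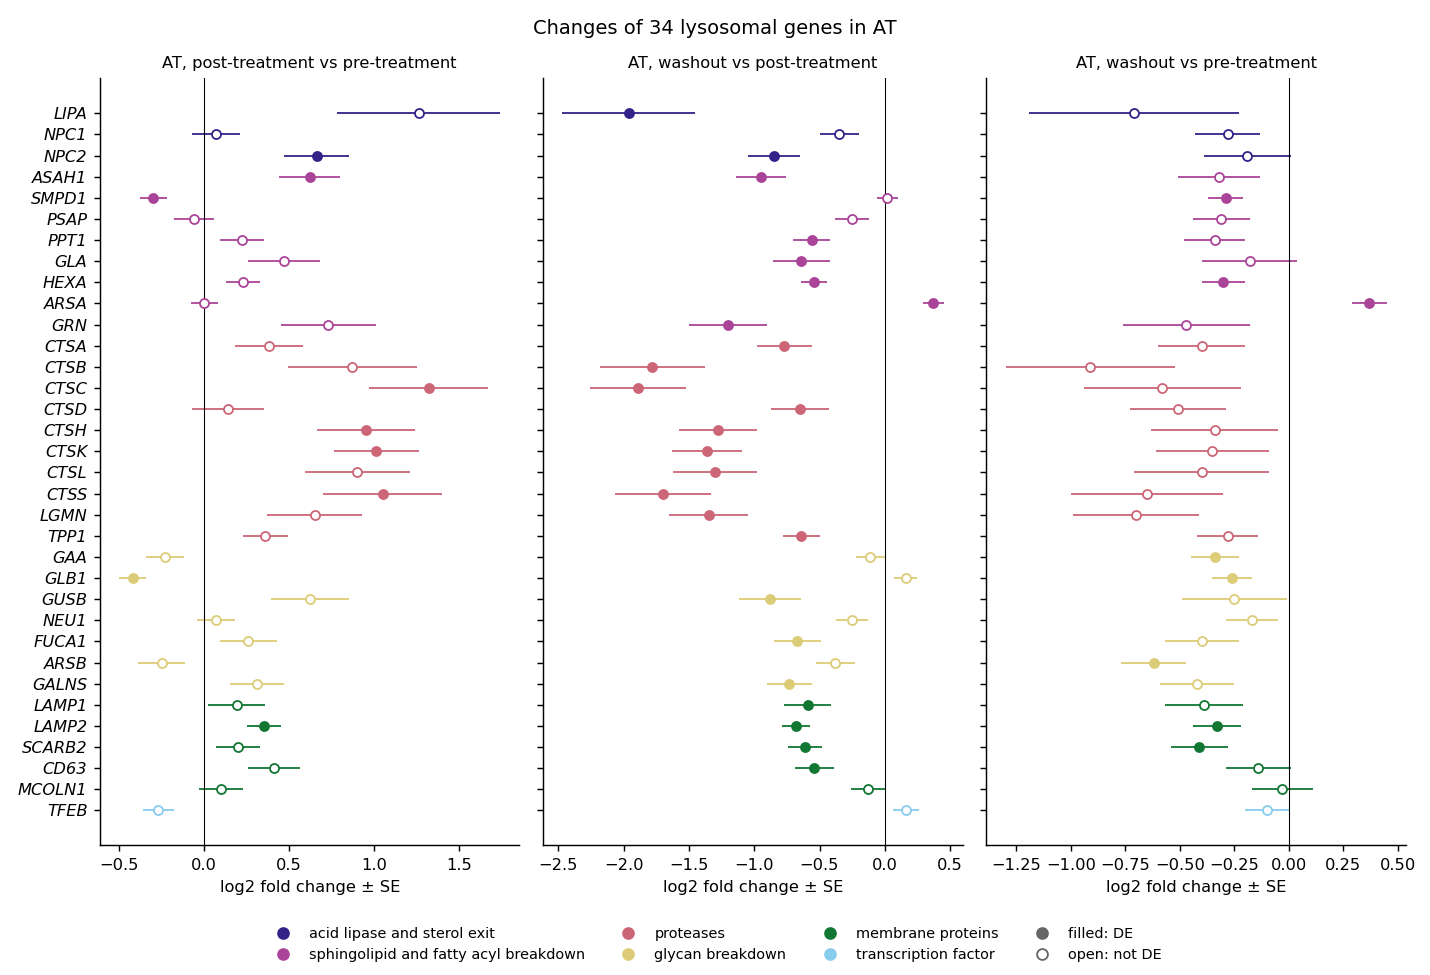
Log2 fold change ± SE of the 34 lysosomal genes in AT for the 3 comparisons, coloured by role, with filled points for DE genes and separate horizontal scales. All 10 proteases are filled at washout compared to post-treatment, ARSA is the 1 gene to rise there, and GLB1 and SMPD1 are the 2 that fell post-treatment.

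Against pre-treatment, 8 of the 34 genes differed at washout, 7 lower and 1 higher. They are 23.5% of the genes, against 20.5% of all genes, and the 7 lower are to be read against 7.96% lower among all genes. The median was -0.34, against -0.02, and 33 of 34 estimates were negative. Of the macrophage markers 7 fell and 0 rose, with a median of -0.79, and their part was not tested. At an unadjusted p under 0.05, 16 of the 34 were counted, against 34% of all genes. The 10 proteases had estimates from -0.91 to -0.28 with adjusted p from 0.0956 (LGMN) to 0.446 (CTSH).

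ARSB, arylsulfatase B, which acts on dermatan and chondroitin sulfate, ranged from 11.1 to 18.6 CPM pre-treatment (median 15.8) and from 5.62 to 14.4 CPM at washout (median 10.2). It fell by 0.62 ± 0.15 (adjusted p = 0.00586), with 5 of 8 washout libraries below the pre-treatment range. SCARB2 ranged from 640 to 846 CPM pre-treatment (median 677) and from 386 to 769 CPM at washout (median 508). It fell by 0.41 ± 0.13 (adjusted p = 0.0318), again with 5 of 8 libraries below that range.

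GAA, acid alpha-glucosidase, which degrades glycogen in lysosomes, ranged from 70.5 to 199 CPM pre-treatment (median 127) and from 67.1 to 149 CPM at washout (median 101). The groups overlapped in all but 1 washout library and 6 of 8 animals were lower (-0.34 ± 0.11, adjusted p = 0.0326). LAMP2, HEXA, SMPD1 and GLB1 fell by 0.33, 0.30, 0.29 and 0.26 on the log2 scale. ARSA ranged from 41.2 to 69.3 CPM pre-treatment and was higher at washout in 8 of 8 animals (0.37 ± 0.08, adjusted p = 0.0032).

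Estimates for LIPA (-0.71 ± 0.48), CTSD (-0.51 ± 0.22), LAMP1 (-0.39 ± 0.18) and TFEB (-0.10 ± 0.10) did not pass, with adjusted p of 0.322, 0.106, 0.14 and 0.476. The number of DE genes in this comparison moved with the method. voomWithQualityWeights, the method of the study, called 24, of which 23 were lower, a fit of only the 2 time points called 14, no animal in the model 4, library size alone 2 and the last identifier series alone 0. It was 2 without animal 20261, 3 without 21189, and 4 without 21866, 22130 or 26292. The share of all genes given above for this comparison belongs to the main fit alone. The paper, with voomWithQualityWeights, also called more of all genes in this comparison than edgeR did here.

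In SM, no lysosomal gene was DE in any of the 3 comparisons by edgeR's quasi-likelihood test, DESeq2 or voomWithQualityWeights. At an unadjusted p under 0.05, edgeR gave 2 of 34 post-treatment compared to pre-treatment (LGMN at -0.40 and NPC1 at -0.43), 3 at washout compared to post-treatment (NPC1 at 0.46, CTSB at 0.43 and GAA at 0.32) and 0 at washout compared to pre-treatment. Over all 12617 genes, edgeR called 0, 0.19 and 0.0634% DE, with 0.182% higher and 0.00793% lower at washout compared to post-treatment. By edgeR, 3.24, 17.3 and 13.4% had an unadjusted p under 0.05. The shares by DESeq2 and voomWithQualityWeights are not given here, so that their 0 of 34 cannot be set against them. For the last of the 3 comparisons, the paper's voomWithQualityWeights analysis called many more muscle genes than edgeR did here.

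LIPA in SM ranged from 11.6 to 26.2 CPM pre-treatment (median 20.2), from 9.96 to 27.8 CPM post-treatment (median 16) and from 9.3 to 38.5 CPM at washout (median 17.2). LAMP1 had medians of 115, 104 and 99.1 CPM at the 3 time points, within 88.7 to 149 CPM over all libraries. CTSD ranged from 204 to 323 CPM pre-treatment, from 98.8 to 254 CPM post-treatment and from 195 to 280 CPM at washout. For these 3 genes the ranges of the time points overlapped.

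TFEB in SM ranged from 41.2 to 83.9 CPM pre-treatment (median 48.6), from 21.5 to 66.5 CPM post-treatment (median 49) and from 41.9 to 64.5 CPM at washout (median 51.1). The lowest value, post-treatment, came from animal 21189, whose library stood apart by its markers. LIPA estimates in SM were -0.21 ± 0.34, 0.05 ± 0.33 and -0.16 ± 0.35 for the 3 comparisons, and those of TFEB were -0.16 ± 0.21, 0.14 ± 0.19 and -0.02 ± 0.20. The libraries of the last identifier series alone gave 15 DE lysosomal genes in SM at washout compared to post-treatment, 12 lower and 3 higher. That fit held only 3 post-treatment libraries, that of animal 21189 among them, against 6 at washout. The share of all genes it called is not given here, so that the 15 cannot be set against it. A model with the series gave 1, CTSB.

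Whether AT and SM changed by different amounts was tested directly. Post-treatment compared to pre-treatment, 0 of 34 genes differed between the tissues by edgeR's quasi-likelihood test, DESeq2 or voomWithQualityWeights. By edgeR, 7 had an unadjusted p under 0.05, against 10.6% of all genes, and 0.0487% of 12322 genes were called. The shares by the other methods are not given here. At washout compared to post-treatment, 12 of 34 genes differed, all 12 with a more negative estimate in AT than in SM. They are 35.3% of the genes, against 22.7% of all genes and 10.8% in that direction. At an unadjusted p under 0.05 the count was 18, against 34.8% of all genes.

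CTSB had the largest difference, -2.21 ± 0.48 on the log2 scale for the AT change minus the SM change (adjusted p = 0.00125). In SM, CTSB ranged from 87.3 to 168 CPM post-treatment (median 126) and from 147 to 220 CPM at washout (median 169), so that its estimate there was positive, 0.43 ± 0.16, though not DE. CTSS (-2.05 ± 0.55), LIPA (-2.03 ± 0.65), CTSC (-1.67 ± 0.43), LGMN (-1.59 ± 0.35), GRN (-1.15 ± 0.40) and ASAH1 (-0.95 ± 0.30) followed. CTSD, NPC1, SCARB2, CTSA and LAMP2 differed by -0.87, -0.82, -0.73, -0.71 and -0.61.

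CTSK and NPC2 were not among them, with estimates in SM of -0.87 ± 0.81 and -0.90 ± 0.50. TFEB differed by 0.02 ± 0.21. The count of 12 was 7 without animal 21189 and 4 with library size alone, which moved the median of all genes by 0.22. Without the post-treatment SM library of animal 21189 it was 14. With the identifier series in the model it was 8, of which 6 were among the 12. CTSD, GRN, LAMP2, LIPA, ASAH1 and CTSA then lost their call. The shares of all genes called in these alternative fits are not given here. In SM the first series held 5 post-treatment and 0 washout libraries, and the last series 3 and 6, so that series and time point are partly confounded.

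**Figure D4:**
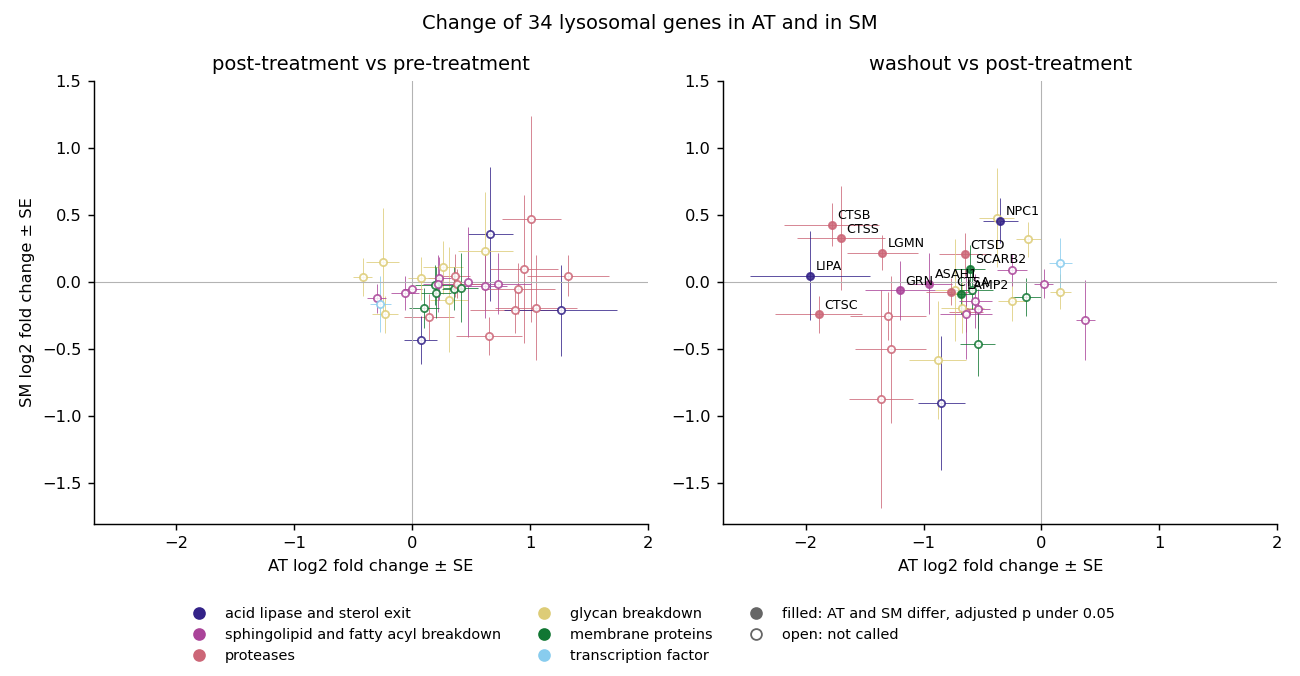
Log2 fold change ± SE of the 34 lysosomal genes in AT (horizontal) and SM (vertical), for post-treatment compared to pre-treatment at left and washout compared to post-treatment at right, coloured by role. The 12 filled and named genes at right are those whose change differed between tissues, and no gene is filled at left.

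Macrophage markers moved with the lysosomal genes in AT. Of 18 markers, 7 rose and 0 fell post-treatment, 18 fell at washout compared to post-treatment, and 7 fell and 0 rose at washout compared to pre-treatment. Their summed level ranged from 1010 to 4030 CPM pre-treatment, from 1860 to 10800 CPM post-treatment and from 702 to 4190 CPM at washout, and none of the markers was at 0. CD68, a lysosomal glycoprotein of macrophages, had estimates of 1.18 ± 0.45 and -2.09 ± 0.48 for the first pair of comparisons. At washout compared to post-treatment the sum fell in 7 of 8 animals and rose by 0.46 on the log2 scale in animal 23004, the animal in which LIPA and all 10 proteases were also higher. Their part in the changes of the lysosomal genes was not tested.

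The changes were compared animal by animal, post-treatment minus pre-treatment, with the log2 change of the summed macrophage markers, leaving out CD68 because its protein is itself lysosomal. Over 9 animals the macrophage change ranged from -0.39 to 2.94, and was above 0 in 6. Of the 34 lysosomal genes, 20 were positively related to it and 0 negatively, at an exact permutation p adjusted over all genes under 0.05, against 8.3% of all genes positively and 4.9% negatively. The median r was 0.927 over the 34 and -0.0746 over all genes. Both measures come from the same pair of libraries of an animal and share their scaling.

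CTSS had r = 0.988 (Spearman's rho = 0.933, exact permutation p = 3.03e-05 and 0.00075, adjusted p of r over all genes 0.00368). LIPA had r = 0.974 (rho = 0.933, exact permutation p = 2.76e-05 and 0.00075, adjusted p of r 0.00351). Without the 2 animals farthest from the median, 20275 and 22130, r was 0.971 for CTSS and 0.904 for LIPA. LAMP1 had r = 0.937 (rho = 0.867, exact permutation p = 0.000237 and 0.00451, adjusted p of r 0.00818) and 0.807 without those animals.

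CTSK had r = 0.878 (rho = 0.733, exact permutation p = 0.00186 and 0.0311, adjusted p of r 0.0239), which was 0.573 without the same animals. In the 6 animals with both libraries in the last identifier series, r was 0.982 for CTSS, 0.953 for LIPA, 0.884 for LAMP1 and 0.97 for CTSK.

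The 7 lowest values of r lay far below that median. r was -0.398 for TFEB (rho = -0.3, exact permutation p = 0.289 and 0.437), -0.383 for GLB1 (rho = -0.183, exact permutation p = 0.311 and 0.644), -0.122 for GAA, 0.14 for SMPD1, 0.195 for ARSA, 0.264 for ARSB and 0.375 for MCOLN1. GLB1 and TFEB were lower post-treatment in all 9 animals, in the 3 with a lower macrophage sum as in the 6 with a higher one.

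**Figure D5:**
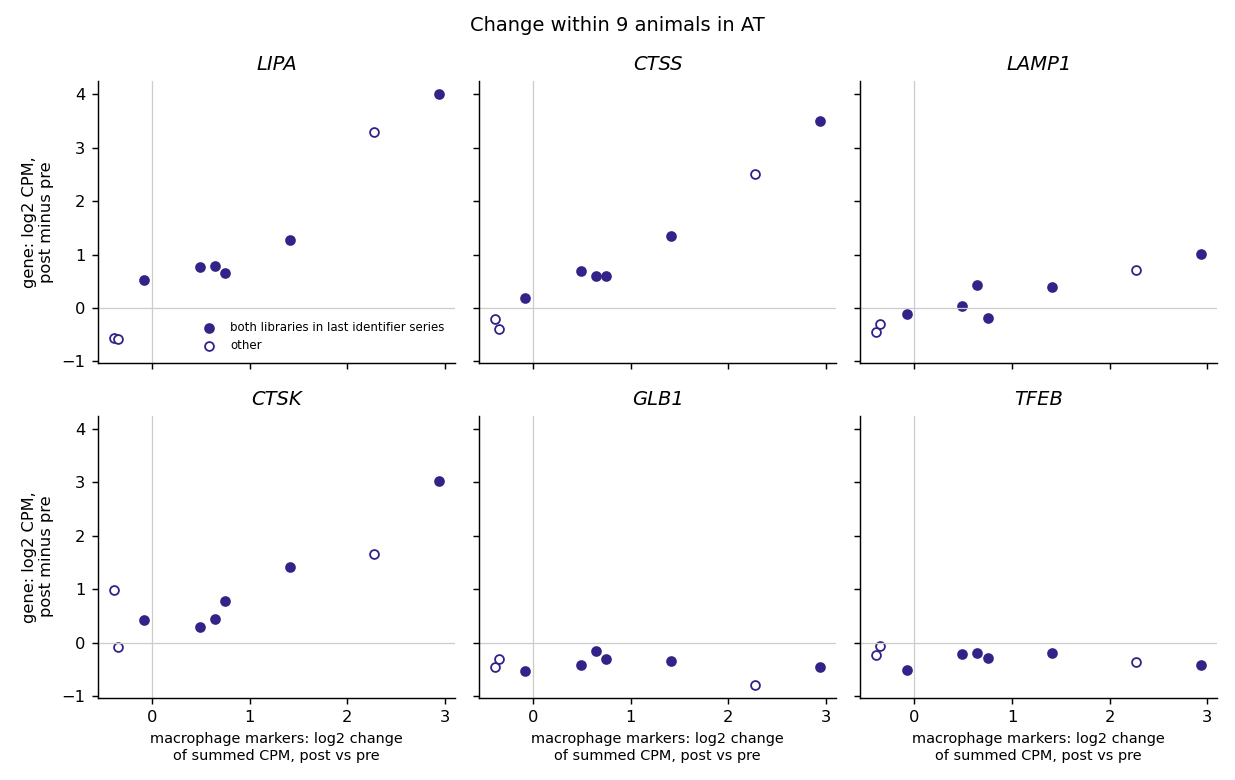
Log2 change of 6 lysosomal genes (vertical) against the log2 change of the summed CPM of 17 macrophage markers (horizontal) in AT, post-treatment minus pre-treatment, 1 point per animal. Filled points are the 6 animals with both libraries in the last identifier series. LIPA, CTSS and LAMP1 rise along the axis (r = 0.974, 0.988 and 0.937), and GLB1 and TFEB lie below 0 in all 9 animals.

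Other genes of the lysosomal system, not members of the list of 36, were counted in AT. Their counts are to be read against all genes, of which 6.98% rose and 8.49% fell post-treatment, 17.6% rose and 17.8% fell at washout compared to post-treatment, and 12.5% rose and 7.96% fell at washout compared to pre-treatment. Several of the counts lie near these shares. Of 17 subunits of the V-ATPase, the proton pump that acidifies lysosomes, 1 rose and 1 fell post-treatment, and 7 fell and 0 rose at washout compared to post-treatment. ATP6V0D2 (-2.43 ± 0.71) and ATP6V1B2 (-0.93 ± 0.20) had the largest decreases of these. Of 24 further hydrolases 3 rose and 3 fell post-treatment, led by ACP5, tartrate-resistant acid phosphatase (1.11 ± 0.27). At washout 13 fell and 2 rose compared to post-treatment, with the largest changes in ACP5 (-1.95 ± 0.29) and IDUA, alpha-L-iduronidase (1.13 ± 0.17).

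Further membrane proteins moved both ways, with 5 of 16 lower and 4 higher at washout compared to post-treatment, of which SLC29A3, a nucleoside transporter, fell by 1.67 ± 0.37 and LAPTM5, a protein of immune cells, by 1.63 ± 0.43 on the log2 scale. Post-treatment, 0 of these 16 rose and 3 fell. In mannose 6-phosphate sorting, which delivers new hydrolases to lysosomes, 3 of 10 genes fell at washout and 1 rose. GNPTAB, which makes the mannose 6-phosphate tag, fell by 1.33 ± 0.27 and IGF2R, a receptor for it, by 0.66 ± 0.13. Post-treatment, 1 gene of the 10 was DE, SORT1, at -0.61 ± 0.20.

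Genes of the TFEB family and of nutrient sensing at the lysosome were also counted. TFE3, a relative of TFEB, fell post-treatment (-0.56 ± 0.11, adjusted p = 0.00479) as did MTOR (-0.29 ± 0.10), 2 of 17 genes, with 0 higher. At washout compared to post-treatment 6 fell and 2 rose, led by FNIP2 (-1.36 ± 0.22) and TFEC (-0.98 ± 0.36). Of 15 autophagy genes 2 fell and 0 rose post-treatment, MAP1LC3A (-0.54 ± 0.14) and BECN1 (-0.30 ± 0.08), and 1 fell and 1 rose at washout compared to post-treatment. Of 4 cystatins tested, which inhibit cathepsins, CST3 rose post-treatment (0.39 ± 0.12), and CST3 (-0.90 ± 0.13) and CSTB (-1.16 ± 0.32) fell at washout compared to post-treatment, while 1 other rose.

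At washout compared to pre-treatment, 1 of 17 V-ATPase subunits fell and 0 rose, 5 of 24 further hydrolases fell and 1 rose, 1 of 16 membrane proteins fell and 2 rose, and 2 of 10 sorting genes fell and 1 rose. Of the 17 TFEB family and nutrient sensing genes 4 fell and 2 rose, MITF with the largest decrease (-0.87 ± 0.16), of the 15 autophagy genes 2 fell and 0 rose, and of the 4 cystatins 1 fell and 1 rose. In SM, the smallest adjusted p over these lists was 0.114, for GNPTAB at washout compared to post-treatment (0.86 ± 0.21).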

How the data were processed

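RNA from snap frozen biopsies was sequenced by the authors (TruSeq stranded mRNA, HiSeq 2000, paired ends), aligned with STAR to the MacaM assembly of the rhesus genome, and assigned to human homologs by gene symbol. The deposited values are raw counts per gene and library, with human symbols. The counting tool and its strand setting are not given in the sources used here, so overlapping and antisense genes may share reads. Of 51 labelled samples, 48 had counts, and 3 SM samples were not analysed here. Of 16103 entries, 70 repeats of a gene identifier were dropped. Total counts had a median of 18578869 per library.

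Libraries were grouped by the labelled tissue, time point and animal. Within each tissue, genes with at least 0.5 CPM in 10% of libraries were kept (13367 in AT, 12617 in SM), scaled by TMM and fitted with edgeR 4.0.16 in R 4.3.3 (quasi-likelihood test, robust, animal and time point in the model). p-values were adjusted by Benjamini-Hochberg over all genes of a tissue. SE, the standard error of a log2 fold change, was derived as its absolute size over the square root of the test's F. DE genes passed 0.05 after adjustment and had an estimate exceeding 0.26 on the log2 scale. The difference of changes between tissues was fitted jointly over 12322 genes and called by adjusted p alone. The tissues were compared pre-treatment over 13296 genes in the 6 animals with both. CPM were scaled by TMM within a tissue, or over both tissues for that comparison, and are not comparable between genes, since no transcript lengths were used. The animal served as block because same-numbered samples come from 1 monkey: deviations from the group means had a median correlation of 0.352 within animals and -0.0354 between animals in AT, and 0.279 and -0.0464 in SM.

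The study itself used voomWithQualityWeights in limma, run here as an alternative (limma 3.58.1), with DESeq2 1.42.0, other scalings and filters, and each animal left out. Relations across animals used exact two-sided permutation tests, computed over all pairings with NumPy 2.4.6, with ranks from SciPy 1.17.1. In simulated data, 200 genes were changed by a log2 fold change of 1.5. The AT fit over 13190 genes called 196 of them and 14 unchanged genes, and the SM fit over 12450 genes called 170 and 12. The simulated counts held no differences between animals, and their spread followed the trend over genes, not that of each gene. Changes smaller than 1.5, the size of most estimates here, were not simulated, so that the power to find them is not known.

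The genes, role groups, pathway lists and marker lists were chosen with earlier results of these data known. Of the 34 genes, those printed in full were LIPA, LAMP1, CTSD and TFEB, with the 3 largest increases and decreases among DE genes of each AT comparison. For each role group up to 4 examples with the smallest p, and for each pathway list the 2 DE genes with the largest changes, were to be named. Further names were chosen after their values were seen.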

Additional observations from a re-analysis of the deposited data

Results flagged for a closer look

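In 54 groups of libraries of the named genes, the highest or lowest library was compared with the rest of its group, a rule that picks a library by chance in about 5% of groups. It picked 3. At washout in AT, animal 23004 had 4280 CPM of CTSB, against a group median of 659 CPM, and 1370 CPM of LAMP1, against a median of 610 CPM. The same library had the highest macrophage sum at washout, 4190 CPM, and the part of that in these values was not tested. Pre-treatment, animal 23004 was also highest in CTSB (4000 CPM), LAMP1 (1120 CPM) and the macrophage sum (4030 CPM). Post-treatment in AT, animal 22130 had 90.4 CPM of SMPD1, against a median of 126 CPM, and the same animal was also lowest pre-treatment (124 CPM) and at washout (89.7 CPM).

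The change at washout compared to post-treatment differed between AT and SM in 12 genes by the test of the difference itself, all with the more negative estimate in AT. The log2 differences were -2.21 for CTSB, -2.05 for CTSS, -2.03 for LIPA, -1.67 for CTSC, -1.59 for LGMN, -1.15 for GRN, -0.95 for ASAH1, -0.87 for CTSD, -0.82 for NPC1, -0.73 for SCARB2, -0.71 for CTSA and -0.61 for LAMP2. Of 18 macrophage markers 8 differed in the same direction, and their part in these differences was not tested. Without the post-treatment SM library of animal 21189, 14 genes differed, 11 of them among the 12. With the identifier series in the model, 8 genes differed, 6 of them among the 12. The shares of all genes called in those fits are not given here.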

How the results depend on the processing

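The number of DE lysosomal genes in AT post-treatment compared to pre-treatment, 9, was 16 with DESeq2, 4 in a fit of only the 2 time points, 4 without the pre-treatment library of animal 20275, 3 in the last identifier series alone, and 1 to 16 with 1 animal left out. At washout compared to pre-treatment, 8 became 24 with voomWithQualityWeights, 14 with only the 2 time points, 2 with library size alone, 0 in the last identifier series alone, and 2 to 8 with 1 animal left out. Without the animal as replicate block it was 4, and that fit moved no other count by over 1.5 times (9 and 25 in the other AT comparisons). In SM at washout compared to post-treatment, 0 became 1 with the identifier series in the model and stayed 0 with any 1 animal left out. It became 15 in the last series alone, which held 3 post-treatment and 6 washout libraries. The 12 genes that differed between AT and SM were 4 with library size alone, 8 with the identifier series in the model, and 7 to 13 with 1 animal left out. At washout compared to post-treatment in AT, the settings gave 22 to 27 DE genes. The shares of all genes called in these alternative fits are not given here, and the cause of these shifts was not tested.

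Of the single estimates in AT that were recomputed, 2 no longer kept their sign: CTSD post-treatment in AT, -0.04 with voomWithQualityWeights, and TFEB at washout compared to pre-treatment in AT, 0 with library size alone. Library size alone also turned SCARB2 in the pre-treatment comparison of AT with SM, whose single estimates are not in that count. Across settings other than leaving out an animal, 589 single estimates kept their direction and side of the threshold, 62 lost a call and 10 gained one. Adjusted over the 34 relations instead of all genes, 27 genes were related to the macrophage markers, 26 with CD68 included, 26 with the mean of the markers' log2 changes, and 21 to 27 with 1 animal left out. The last identifier series alone, the earlier edgeR method and leaving out the SM library of 21189 were chosen after seeing the data.

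Limits were the lack of untreated animals, the change of body weight alongside dosing, the 6 pre-treatment SM libraries, and bulk tissue in which cell types are mixed.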

Other observations

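Markers of cell types other than macrophages were counted in AT beside the lysosomal genes. Of 6 mature adipocyte markers, LEP, which encodes the hormone leptin (-1.93 ± 0.34, edgeR quasi-likelihood adjusted p = 0.00263), and PLIN1, a coat protein of lipid droplets (-0.62 ± 0.20, adjusted p = 0.0383), fell post-treatment and 0 rose, and at washout compared to post-treatment LEP rose (1.87 ± 0.36, adjusted p = 0.000731) and ACVR1C, a receptor of the TGF-beta family, fell (-0.63 ± 0.22, adjusted p = 0.0293). Of 10 stromal markers, the collagen genes COL1A1 (1.02 ± 0.30) and COL1A2 (0.81 ± 0.26) rose post-treatment and 0 fell. COL1A1, COL1A2 and PDGFRA, a receptor of fibroblast progenitors, fell at washout compared to post-treatment, PDGFRA by 1.55 ± 0.28 on the log2 scale. The 6 T cell markers had estimates from 0.24 to 0.73 post-treatment and from -0.40 to 0.06 at washout compared to post-treatment, none past the threshold. Of 6 neutrophil markers 1, CXCR2, fell post-treatment (-0.50 ± 0.16). Muscle fibre markers summed to between 78.7 and 528 CPM in AT, and 1 of 9, DES, was higher at washout. The part of these cell types in the changes of the lysosomal genes was not tested.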
